A study of Mus musculus with 12 samples.

Results

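The immediate-early activation transcription factors are described here in splenic B lymphocytes of mice, as 10 genes of the 24982 gene symbols in each deposited table: Egr1, Egr2, Egr3, Nr4a1, Fos, Fosb, Jun, Junb, Jund and Ier2. They were selected by symbol, and the set was chosen on measured values of these same libraries, so their levels and fold changes are given as a description and without a p-value. All 10 symbols were found in the tables, and all 10 passed the filter on low values in each comparison. The 12 libraries of polyadenylated RNA came from primary B lymphocytes isolated from the spleen at 6 weeks of age. Of these, 4 were from WT mice (C57BL/J6), 4 from Eμ-Myc transgenic mice and 4 from Eμ-Myc;PRPS2 KO mice, which carry the same transgene with a knockout of PRPS2 (the knockout group). This transgene puts Myc under the immunoglobulin heavy-chain enhancer, so it acts in B-lineage cells. The labels number the biological replicates of each group 1 to 4, and do not say how the knockout was made or whether a library pooled mice.

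Immediate-early genes are the genes that a cell transcribes within minutes of a stimulus, with no need for new protein synthesis. In B cells, engagement of the antigen receptor starts the Ras-ERK, JNK, p38 and calcium-NFAT cascades, whose nuclear targets switch these genes on, and their mRNAs are short-lived. FOS and JUN family proteins pair through leucine zippers to form the transcription factor AP-1, EGR proteins are zinc-finger factors that bind GC-rich sites, and NR4A1 (NUR77) is an orphan nuclear receptor widely used as a reporter of antigen receptor signalling. Cell isolation and stress are also known to switch these genes on.

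Known routes to these genes act through short promoter elements, and the promoters of 4 members are shown because their genes stood for the different patterns described below. Each is the 250 bases before an annotated start in RefSeq (GRCm38.p6, the assembly of mm10), 5′ to 3′ on the gene's strand. Capitals mark the CArG box (the site of serum response factor), TGACG (the half-site of CREB and ATF factors), GCGNGGGCG (the EGR site), CCGGAA (the ETS core) and TATAAA. Matches on the opposite strand appear as their reverse complement.
Fos (chr12:85473640-85473889, plus strand): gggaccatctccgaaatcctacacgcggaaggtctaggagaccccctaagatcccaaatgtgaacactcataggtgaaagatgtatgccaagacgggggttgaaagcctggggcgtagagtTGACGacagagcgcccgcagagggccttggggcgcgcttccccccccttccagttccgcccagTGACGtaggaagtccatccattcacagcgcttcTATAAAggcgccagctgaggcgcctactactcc
Fosb (chr7:19310046-19310295, minus strand): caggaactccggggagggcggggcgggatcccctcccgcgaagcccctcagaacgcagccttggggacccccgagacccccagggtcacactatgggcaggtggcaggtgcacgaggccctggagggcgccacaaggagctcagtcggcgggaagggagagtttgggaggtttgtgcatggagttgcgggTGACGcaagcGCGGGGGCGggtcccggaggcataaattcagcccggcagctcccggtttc
Nr4a1 (chr15:101266596-101266845, plus strand): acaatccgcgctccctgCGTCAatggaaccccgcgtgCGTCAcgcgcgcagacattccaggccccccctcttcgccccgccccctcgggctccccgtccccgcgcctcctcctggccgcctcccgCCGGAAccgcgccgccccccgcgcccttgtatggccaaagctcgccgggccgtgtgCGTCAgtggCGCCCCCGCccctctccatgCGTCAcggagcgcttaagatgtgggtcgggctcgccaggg
Egr2 (chr10:67537316-67537565, plus strand): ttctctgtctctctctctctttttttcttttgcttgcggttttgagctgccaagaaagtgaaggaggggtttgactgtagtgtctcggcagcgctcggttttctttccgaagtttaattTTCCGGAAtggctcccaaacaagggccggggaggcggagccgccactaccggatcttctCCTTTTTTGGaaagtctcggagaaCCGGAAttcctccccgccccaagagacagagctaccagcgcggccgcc

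The Fos window held TGACG at -129 to -125 and at -66 to -62 from the start and TATAAA at -33 to -28, and the Fosb window held TGACG at -60 to -56 and an EGR site at -50 to -42. The Nr4a1 window held 4 copies of TGACG, all on the opposite strand, with an EGR site at -60 to -52 and an ETS core at -125 to -120. The Egr2 window, 1 of 5 in the table for this gene, held a CArG box at -72 to -63 and 3 ETS cores, of which those at -131 to -126 and -129 to -124 overlap on opposite strands. It was printed because it held the most matches of the 5, which differ: 4 held a CArG box, 3 held TGACG, which the printed one lacks, and only the printed one held CCGGAA. Among 32851 promoter windows of the same length, 1.47% held a CArG box, 17.8% TGACG, 4.7% the EGR site, 12% CCGGAA and 12.4% TATAAA. Junb had TGACG at -106 to -102, and the Jun window held none of these letters. A match is a description of the sequence and was not tested as a site in these cells.

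The values are mean coverages per gene, scaled between libraries, and 1 value can be compared between genes because coverage is per base. How many reads a value rests on is unknown, so errors are the SD or SE between libraries. The targeted gene Prps2 was at 97.9, 139, 123 and 140.0 in WT, 246, 199, 253 and 287 in Eμ-Myc and 18.3, 17.0, 17.1 and 16.2 in the knockout group. All libraries thus matched their label for the knockout, and Prps2 does not check the label for the transgene. Myc was at 226 to 346 in WT, 1559 to 2302 in Eμ-Myc and 1099 to 3282 in the knockout group, so higher in every transgenic library than in WT. The sum of 6 B cell markers was 5977, 11286.5, 9581 and 5817 in WT libraries 1 to 4, lower in libraries 1 and 4 than in 2 and 3, and lay between 6194 and 8358 in the 8 transgenic libraries. Knockout libraries 3 and 4 stood apart from the rest, with T cell marker sums of 56.9 and 58.1 against 150 to 3478 in the other libraries, and NK cell marker sums of 15.0 and 14.5 against 56.3 to 909. WT libraries 1 and 4 stood apart from WT libraries 2 and 3 in 9 of the 10 genes described here, being higher in 8 and lower in Egr3, whereas Egr2 did not split that way. In bulk RNA, fewer cells of a type and less RNA per cell cannot be told apart.

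Egr2 and Egr3, zinc-finger factors of the EGR family known to shape lymphocyte responses to antigen, were lower in every transgenic library than in every WT library. Scaled coverage of Egr3 was 75.3, 184, 168 and 99.4 in WT libraries 1 to 4, 27.3, 18.4, 22.4 and 15.3 in Eμ-Myc, and 43.4, 38.6, 1.55 and 1.11 in the knockout group. Within WT, Egr3 was higher in libraries 2 and 3 than in 1 and 4, and in the knockout group libraries 3 and 4 were far below 1 and 2. Egr2 was at 10.3, 12, 12.8 and 17.0 in WT, 4.07, 3.46, 5.03 and 2.82 in Eμ-Myc, and 7.01 and 8.71 in knockout libraries 1 and 2. In knockout library 3 Egr2 was listed at 0, and in library 4 it was at 0.333. The WT libraries were thus above all 8 transgenic ones for both genes, and the highest-to-lowest ratio within WT was 1.65 for Egr2 and 2.44 for Egr3. In Eμ-Myc against WT the groups did not overlap, in either direction, for 51.4% of all genes. In the knockout group against WT this held for 37.1%, so such a separation was not particular to these genes.

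The log2 fold change of Egr3 was -2.57 (SE 0.30) in Eμ-Myc against WT and -3.84 (SE 1.15) in the knockout group against WT. The corresponding values for Egr2 were -1.64 (SE 0.22) and -2.52 (SE 0.94), on the log2(scaled coverage + 0.5) scale, which understates changes of low genes. These comparisons share the 4 WT libraries. The sign of neither gene changed in any alternative run, including those without WT libraries 1 and 4 or without WT libraries 2 and 3. The size did change in the knockout group against WT, from -6.39 to -1.58 for Egr3 and from -4.37 to -0.68 for Egr2 across the alternatives.

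Egr1, the family member most used as a marker of ERK signalling, did not separate the groups. Its scaled coverage was 194, 32.2, 30.0 and 158 in WT, 33.6, 22.3, 56.9 and 22.6 in Eμ-Myc, and 67.6, 63.2, 3.22 and 1.89 in the knockout group. WT libraries 1 and 4 were high, WT libraries 2 and 3 lay inside the range of Eμ-Myc, and knockout libraries 3 and 4 were the lowest of the 12. The log2 fold change in Eμ-Myc against WT was -1.23 (SE 0.65), and it was 0.01 without WT libraries 1 and 4 and -2.46 without WT libraries 2 and 3.

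Nr4a1 was at 200.1, 61.5, 53.3 and 153 in WT, 50.8, 51.5, 91.2 and 24.0 in Eμ-Myc, and 103, 94.7, 9.77 and 9.1 in the knockout group. The groups overlapped, with WT libraries 1 and 4 highest and knockout libraries 3 and 4 lowest. Its log2 fold change was -1.03 (SE 0.51) in Eμ-Myc against WT and -1.68 (SE 0.92) in the knockout group against WT. Across the alternatives these values ran from -1.83 to -0.20 and from -3.34 to -0.02, so the size turned on which libraries entered.

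**Figure D1:**
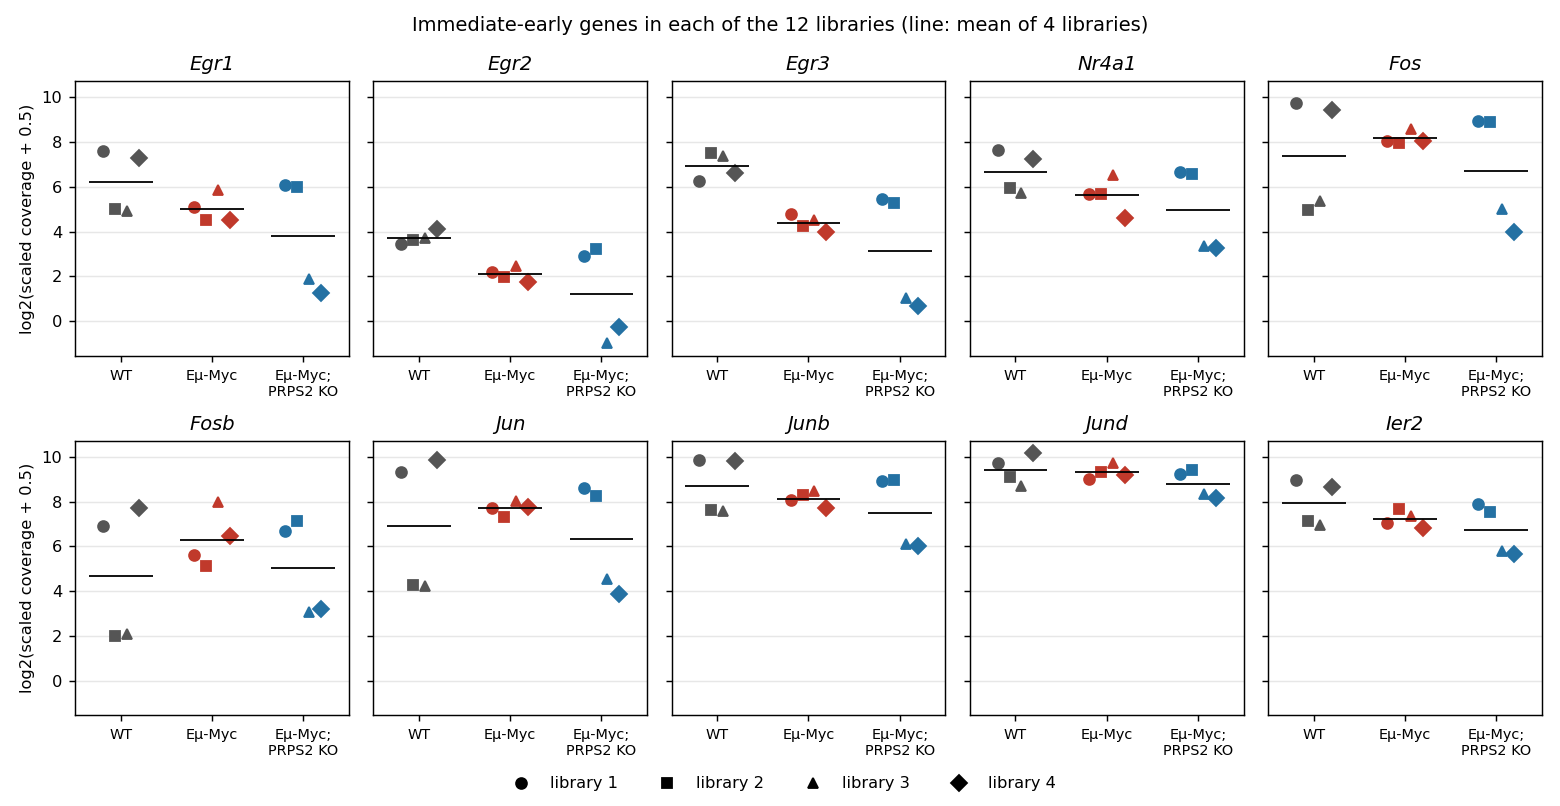
Scaled coverage of the 10 genes as log2(scaled coverage + 0.5) on the vertical axis for WT, Eμ-Myc and the knockout group, with 1 point per library and a line at the mean of the 4 libraries of a group. Egr2 and Egr3 show 4 WT points above all others, whereas for Fos, Jun and Junb the WT and the knockout libraries form pairs on either side of Eμ-Myc.

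Of the 10 genes, Fos, Fosb and Jun, which encode AP-1 proteins, had the widest spread within WT. Scaled coverage of Fos, the main inducible partner of JUN proteins, was 866, 31.2, 40.5 and 699 in WT, 265, 250.4, 388 and 264 in Eμ-Myc, and 499, 476, 31.6 and 15.4 in the knockout group. WT libraries 1 and 4 and knockout libraries 1 and 2 were above every Eμ-Myc library, and the remaining WT and knockout libraries were below every Eμ-Myc library. The highest WT library was 27.7 times the lowest, so the WT mean of 409 ± 436 (SD, n = 4) stands for no single library.

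Jun, which can pair with itself or with FOS proteins, showed the same placing of library pairs at 640.2, 18.7, 18.5 and 929 in WT and 389.9, 305, 22.8 and 14.2 in the knockout group. The 4 Eμ-Myc libraries lay between these pairs, at 211, 159.8, 258 and 219. Within WT the highest library was 50.1 times the lowest, whereas within Eμ-Myc the mean was 212 ± 40.3 (SD, n = 4).

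Fosb, a FOS family member with a long-lived truncated isoform, was at 121, 3.47, 3.77 and 212 in WT, 49.0, 34.8, 254 and 87.1 in Eμ-Myc and 102, 141, 7.88 and 8.76 in the knockout group. WT libraries 2 and 3 were below the other 10 libraries, a placing that 7.4% of all 12723 genes tested in Eμ-Myc against WT also had. Eμ-Myc library 3 was the highest of all 12 for Fosb, and the ratio of the highest to the lowest library was 61.1 for WT, 7.31 for Eμ-Myc and 17.9 for the knockout group.

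Junb, a JUN family member that can restrain JUN activity, was at 919.7, 201, 191 and 908 in WT, 271, 314, 352 and 209 in Eμ-Myc, and 489, 495, 68.5 and 65.3 in the knockout group. Its WT and knockout pairs again lay on either side of Eμ-Myc, with a smaller ratio of 4.81 between the highest and lowest WT library. Jund, the constitutive JUN family member, was at 861, 543, 419.6 and 1156 in WT, 519, 642, 847 and 587 in Eμ-Myc, and 613, 695, 327 and 289 in the knockout group. The groups overlapped, and within the knockout group the highest-to-lowest ratio of Jund, 2.40, was the smallest of the 9 genes above 0 in all 4 libraries.

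Ier2, a short nuclear protein induced with the AP-1 genes, was at 499, 139, 125 and 404 in WT, 134, 201, 162 and 112 in Eμ-Myc, and 241, 184, 55.3 and 49.7 in the knockout group. WT libraries 1 and 4 were the highest of the 12, and knockout libraries 3 and 4 the lowest.
Ranked by the SD of log2 values within a group among 9909 genes of mean scaled coverage 8 or more, Jun was 4th in WT with an SD of 3.09, Fosb was 5th with 3.07 and Fos was 8th with 2.57, where the median gene had 0.190. Egr1 was 89th and Junb 130th in WT, whereas Egr3 was 772nd and Jund 675th. In Eμ-Myc the order changed: Fosb was 17th, but Fos was 2385th with an SD of 0.29 and Jun 2481st with 0.29, against a median of 0.195. Among knockout libraries, where the median gene had an SD of 0.355, Egr3 was 67th, Egr1 70th, Fos 71st and Jun 119th. Egr2 lay under the minimum for this ranking. Fos and Jun thus ranked among the most variable genes within WT, and within Eμ-Myc 24.1% and 25% of genes were at or above them.

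The placing of library pairs can be counted across all genes. Fos, Jun and Junb, 3 of the 10 genes, had WT libraries 1 and 4 above and WT libraries 2 and 3 below all 4 Eμ-Myc libraries, as had 55 of the 12723 genes tested in that comparison (0.432%). Egr1, Egr2, Egr3, Nr4a1, Fos, Jun and Junb, 7 of the 10, had knockout libraries 1 and 2 above and 3 and 4 below all Eμ-Myc libraries, as had 13.5% of 12551 genes. Knockout libraries 3 and 4 were below the other 10 libraries for Egr1, Egr2, Egr3, Nr4a1, Junb, Jund and Ier2, as they were for 25.3% of genes. The pairs were picked after their values were seen, so these counts are a description.

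In Eμ-Myc against WT, 2 of the 10 genes, Egr2 and Egr3, passed limma's test at a Benjamini-Hochberg adjusted p under 0.05, both lower, and neither did so with all 12 libraries in one fit. Over all genes 55.1% were called, 30.4% higher and 24.7% lower, and since measured values of this contrast chose the genes, nothing is read from the count. The groups did not overlap for the same 2 genes and for 51.4% of all genes. Fos had a log2 fold change of 0.78 (SE 1.07), Jun of 0.79 (SE 1.28) and Fosb of 1.62 (SE 1.37), each SE as large as or close to the value. Junb was at -0.59 (SE 0.55), Jund at -0.11 (SE 0.30) and Ier2 at -0.71 (SE 0.45). For Fos and Jun the linear WT means were nevertheless above those of Eμ-Myc, since a mean of log values gives the low WT libraries more weight.

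The sign of these genes turned on which WT libraries entered. Without WT libraries 2 and 3 the log2 fold change in Eμ-Myc against WT was -1.44 for Fos, -1.88 for Jun and -1.03 for Fosb, and 9 of the 10 genes were called beside 47.0% of all genes. Without WT libraries 1 and 4 the value was 3.00 for Fos, 3.45 for Jun and 4.26 for Fosb, and 5 of the 10 were called beside 50.7% of all genes. Both settings were chosen after seeing the data.

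In the knockout group against WT, 1 of the 10 genes, Egr3, was called lower, beside 29.3% of all genes, with 19.7% higher and 9.6% lower. Egr2 and Egr3 did not overlap between the groups, nor did 37.1% of all genes. Egr1 was at a log2 fold change of -2.41 (SE 1.27), Junb at -1.22 (SE 0.90), Ier2 at -1.21 (SE 0.67) and Jund at -0.62 (SE 0.40). Fos was at -0.67 (SE 1.56), Jun at -0.61 (SE 1.69) and Fosb at 0.34 (SE 1.62), with SEs well above the values. The sign changed in 5 of 21 alternatives for Fos, 5 of 21 for Jun and 6 of 20 for Fosb. Across the alternatives Egr1 ran from -4.645 to -0.18, Junb from -2.65 to 0.22, Ier2 from -2.21 to -0.21 and Jund from -1.16 to -0.08. The call of Egr3 was lost when any 1 WT library or knockout library 3 or 4 was left out, where 4.78% to 10% of all genes were called. Of the 10 genes 2 were called without knockout library 1 or 2, beside 53.2% and 33.1% of all genes.

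Eμ-Myc;PRPS2 KO against Eμ-Myc compares the 2 genotypes that differ in PRPS2 on the transgenic background. None of the 10 genes was called by limma, beside 0.00797% of all genes, which was Prps2 alone, and 121 genes (0.964%) had an unadjusted p under 0.05. The groups overlapped for all 10 genes, and did not overlap for 1.52% of all genes. All 10 log2 fold changes were below 0, from -1.45 (SE 1.12) for Fos and -1.39 (SE 1.06) for Jun to -0.50 (SE 0.53) for Ier2, with a median of -1.03 beside -0.03 over all genes. Egr1 was at -1.19 (SE 1.15), Egr2 at -0.88 (SE 0.95), Egr3 at -1.27 (SE 1.13), Nr4a1 at -0.66 (SE 0.89), Fosb at -1.28 (SE 1.08), Junb at -0.63 (SE 0.73) and Jund at -0.51 (SE 0.31). This direction did not hold in both pairs of knockout libraries. Without knockout libraries 3 and 4 the values of all 10 genes were above 0 with 1 of them called, beside 4.21% of all genes, and without libraries 1 and 2 all 10 were called lower, beside 28.7% of all genes called in either direction. Those settings were chosen after seeing the data.

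**Figure D2:**
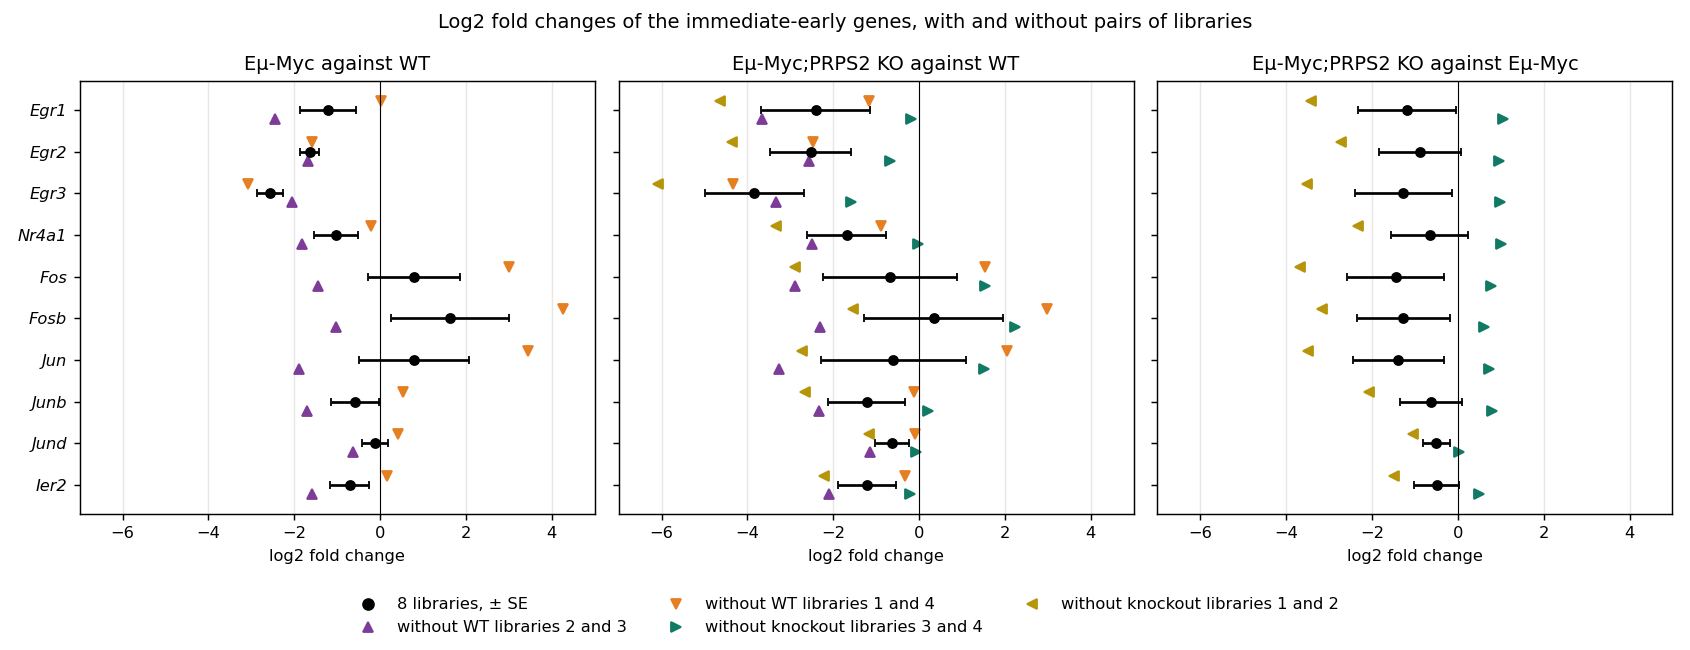
Log2 fold changes (horizontal axis, log2 scale) of the 10 genes in each comparison with the SE of the fit over all libraries, and the values without pairs of libraries as separate marks. Egr2 and Egr3 stay below 0 against WT in every setting, while Fos, Fosb and Jun lie on either side of 0 depending on the WT pair left out.

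Other genes moved with these pairs of libraries. Hspa1a, an inducible heat shock chaperone, was at 346, 0.844, 1.13 and 569 in WT, 223, 289.8, 196 and 121 in Eμ-Myc, and 301, 198, 59.6 and 51.0 in the knockout group. Like Fos and Jun it was low in WT libraries 2 and 3 relative to 1 and 4, and it was nearly absent there, whereas Fos and Jun were not. In knockout libraries 3 and 4 it was well above that level. Its neighbour and near-identical copy Hspa1b, with which reads may be shared, followed the same order at 520.2, 2.25, 3.86 and 896 in WT and 512, 325, 135 and 126 in the knockout group. The heat shock genes Hspa8 and Hsph1 were also higher in WT libraries 1 and 4 than in 2 and 3. Across knockout libraries 1 to 4 they went the other way, at 2379, 3007, 3525 and 3728 for Hspa8 and 114, 209, 238 and 271 for Hsph1. The part of a heat shock or stress response in the differences among WT libraries was not tested.

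T cell markers were expressed beside the B cell genes, and T cells use the same immediate-early genes. The sum of 9 T cell markers was 1176, 665, 843 and 3478 in WT, 150 to 214 in Eμ-Myc, and 782, 867, 56.9 and 58.1 in the knockout group. In Eμ-Myc against WT 9 of 9 T cell and 5 of 5 NK cell markers fell (limma, adjusted p under 0.05), beside 24.7% of all genes. Their median log2 fold changes were -3.04 and -2.09. Against WT in the knockout group all 14 were below 0, with medians of -3.20 and -2.42, and none was called, beside 9.6% of all genes called lower. The defining T cell marker Cd3e was at 0.555 and 0.666 in knockout libraries 3 and 4, against 48.5 and 71.8 in 1 and 2.

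The sum of 5 NK cell markers was 653, 209.8, 237 and 909 in WT, 56.3 to 160.1 in Eμ-Myc and 363, 262, 15.0 and 14.5 in the knockout group. The sum of 8 myeloid markers was 24668, 8175, 8142 and 14497 in WT, 5727 to 16822 in Eμ-Myc and 15408, 11497, 3020 and 1315 in the knockout group. Plasma cell markers summed to 209 to 328 in WT, 208 to 304 in Eμ-Myc and 194, 245, 14.7 and 12.9 in the knockout group. Dendritic cell markers summed to 137 to 176 in WT, 65 to 109 in Eμ-Myc and 147, 97.4, 22.9 and 16.9 in the knockout group. Platelet markers summed to 75 to 376 (WT), 68.8 to 139.6 (Eμ-Myc) and 31.9 to 126 (knockout). All 4 fell in the knockout group against WT (median log2 fold change -2.08, limma adjusted p under 0.05), beside 9.6% of all genes. Erythroid markers summed to 75.9 to 842 in WT, 81.2 to 495 in Eμ-Myc and 80.7 to 114 in the knockout group. The sum of 4 stromal and endothelial markers was 347 to 559 in WT, 264 to 313 in Eμ-Myc and 383, 340.1, 154 and 165 in the knockout group. Nearly all of it was Pecam1, an adhesion molecule that leukocytes and platelets also carry, while the collagen genes Col1a1 and Col3a1 were at or near 0 in every library. Knockout libraries 3 and 4 were the lowest of the 12 in these T, NK, myeloid, dendritic, plasma cell and stromal sums and in 7 of the 10 immediate-early genes, not in Fos, Fosb and Jun. The T, NK, myeloid and erythroid sums were also higher in WT libraries 1 and 4 than in 2 and 3, as Fos and Jun were. In contrast, the B cell, platelet and stromal sums were lower in WT libraries 1 and 4, as Egr3 was. The part of other cell types in either pattern was not tested. Myc, whose coverage does not separate the transgene from the native gene, went the other way, at 1099, 1718, 3017 and 3282 in knockout libraries 1 to 4.

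**Figure D3:**
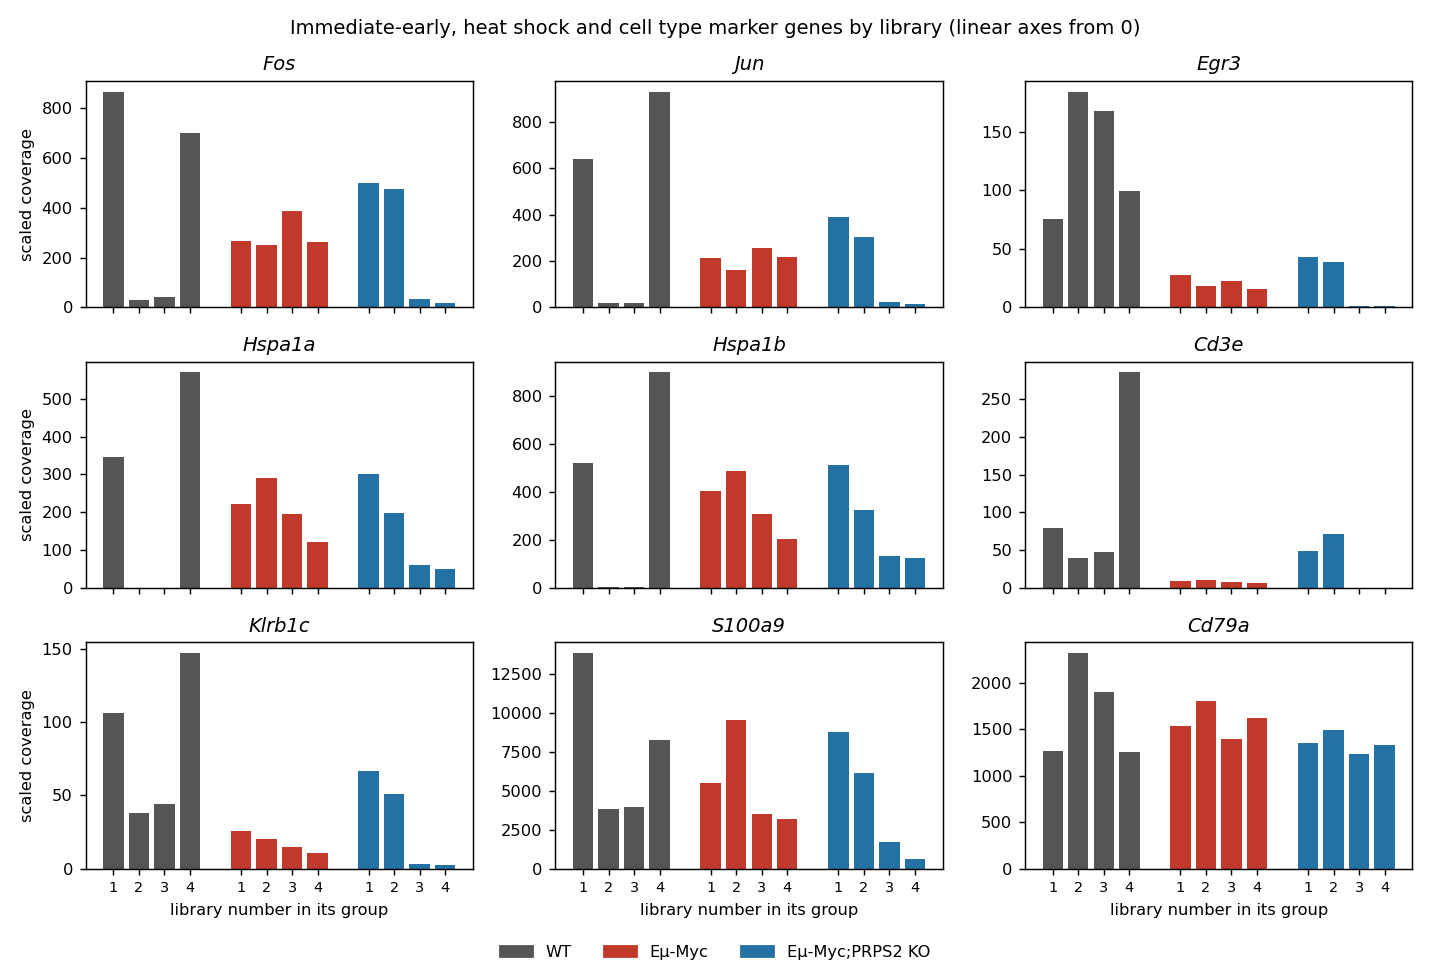
Scaled coverage (linear axes from 0) in each of the 12 libraries, numbered within their group, for immediate-early genes, heat shock genes and markers of other cell types. Fos (31.2 and 40.5) and Hspa1a (0.844 and 1.13) are lower in WT libraries 2 and 3 than in 1 and 4, and Cd3e is near 0 in knockout libraries 3 and 4.

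By level, coverage per base put Jund first in all 3 groups, with means of 745 ± 331 (WT), 649 ± 141 (Eμ-Myc) and 481 ± 203 (knockout), each the SD of n = 4, and Egr2 last. In WT the order below Jund was Junb, Fos, Jun, Ier2, Egr3, Nr4a1, Egr1, Fosb and Egr2. Only the steps from Ier2 to Egr3 and from Fosb to Egr2 were larger than the pooled SD of the neighbours. That SD is between libraries and leaves out that both genes were measured in the same libraries, so a smaller step does not show equal levels. Junb, for example, was above Fos in every WT library, whereas Fos was above Jun in WT libraries 1 to 3 and below it in library 4. In Eμ-Myc the order was Jund, Fos, Junb, Jun, Ier2, Fosb, Nr4a1, Egr1, Egr3 and Egr2, and the steps from Jund to Fos, Junb to Jun, Jun to Ier2, Egr1 to Egr3 and Egr3 to Egr2 exceeded the pooled SD. Egr3 moved from rank 6 in WT to rank 9 in Eμ-Myc, where its mean was 20.9 ± 5.20 against 132 ± 52.5 in WT (SD, n = 4). For the knockout group only the step from Egr3 to Egr2 exceeded the pooled SD.

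The genes whose pattern was nearest to the median of the 10 genes were found by the root-mean-square difference of centred log2 values over the 12 libraries, among 9347 genes. They were Zfp36 at 0.15, Klf6 at 0.32, Klf4 at 0.33, Rhob at 0.38 and Spry2 at 0.40. Among the 10 genes themselves Junb at 0.23 and Nr4a1 at 0.27 were nearest to that median, and Fosb at 1.49, Egr3 at 1.39 and Jun at 1.19 farthest. Zfp36, an mRNA-decay factor that is itself an immediate-early gene, was at 1148, 333, 299 and 1044 in WT, 428, 365, 526 and 317 in Eμ-Myc, and 679, 725, 75.2 and 68.3 in the knockout group. Its WT libraries 1 and 4 and knockout libraries 1 and 2 were above every Eμ-Myc library, and knockout libraries 3 and 4 were the lowest of the 12.

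Of 32 symbols listed as other immediate-early genes, 31 were in the tables and 28 were tested. In Eμ-Myc against WT 11 fell and 2 (Gadd45b and Ier5l) rose, with a median log2 fold change of -0.77 beside -0.01 over all genes tested and against 24.7% of all genes called lower. Irf1, an interferon-responsive factor, fell by 1.28 (SE 0.19, adjusted p = 0.000359 by limma). Csrnp1, a nuclear protein induced by AXIN1, fell by 1.32 (SE 0.25, adjusted p = 0.00195 by limma) and Cd69, an early surface marker of activation, fell by 2.08 (SE 0.42, adjusted p = 0.00279 by limma) on the log2 scale. With all 12 libraries in one fit 4 genes of the list were called, without Csrnp1 and Cd69, and without WT libraries 2 and 3, 22 were called. Cd69 was also not called under library quality weights.

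Upstream of these genes, 13 of 25 tested genes of the Ras-ERK route to the serum response element fell and 2 rose in Eμ-Myc against WT, with a median of -0.44, beside 24.7% of all genes lower and 30.4% higher. Rasgrp3, the exchange factor that loads RAS with GTP below the B cell receptor, fell by 2.41 (SE 0.24, adjusted p = 4.32e-05 by limma). Elk3, an ETS factor that partners serum response factor, fell by 1.33 (SE 0.14), and Map2k1, the kinase that activates ERK, by 0.77 (SE 0.11). Rasgrp3 was not called with all 12 libraries in one fit.

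In the calcium, NFAT and MEF2 route 12 of 18 genes fell and 2 (Mef2d and Ppp3cb) rose, with a median of -0.77, beside 24.7% of all genes lower and 30.4% higher. Nfatc2 fell by 1.85 (SE 0.20), Nfatc1 by 1.38 (SE 0.16) and Mef2a, a factor released by calcium signals, by 0.99 (SE 0.13) on the log2 scale. NFAT proteins are known activators of Egr2 and Egr3. In the same contrast all 9 T cell and all 5 NK cell markers fell, as given above. Across the knockout libraries Nfatc2 was at 70.9, 83.3, 3.00 and 3.22 and Rasgrp3 at 67.2, 59.5, 1.78 and 1.66, with T cell sums of 782, 867, 56.9 and 58.1. Across the WT libraries, with T cell sums of 1176, 665, 843 and 3478, Nfatc2 was at 99.1, 95.4, 116 and 140. Rasgrp3 was at 144, 211, 209 and 121 there, lower in libraries 1 and 4, where the T cell sums were higher. The part of other cell types in the falls of these lists was not tested. Nfatc2 was not called with all 12 libraries in one fit, and 9 of the list were called without WT libraries 2 and 3. In the JNK, p38 and CREB route 7 of 17 genes fell and 2 rose, with a median of -0.29, beside the same shares of all genes. Mapk11, a p38 kinase, fell by 0.88 (SE 0.15), Crebbp, a histone acetyltransferase that CREB recruits, fell by 0.73 (SE 0.17), and Map2k6, a p38-activating kinase, rose by 0.37 (SE 0.11). Without WT libraries 2 and 3 only 1 gene of this list was called, without Crebbp and Map2k6, and leaving out WT library 2, WT library 3 or Eμ-Myc library 3 left 5, 5 and 4. Map2k6 was also not called without WT libraries 1 and 4 or with total coverage scaling.

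The listed feedback inhibitors, genes that restrain immediate-early signalling, whether or not it induces them, had 15 of 21 members that fell and none that rose in Eμ-Myc against WT, with a median of -0.88, beside 24.7% of all genes lower and 30.4% higher. Nab2, the corepressor that binds EGR proteins and is itself an EGR target, was at 69.8, 82.4, 73.8 and 104 in WT, 21.4, 18.8, 14.6 and 10.8 in Eμ-Myc, and 40.5, 36.8, 3.00 and 3.22 in the knockout group. As for Egr2 and Egr3, all WT libraries were above all transgenic ones, and Nab2 fell by 2.32 (SE 0.21, adjusted p = 2.64e-05 by limma) in Eμ-Myc against WT. Dusp4, a phosphatase of ERK, fell by 2.66 (SE 0.30) and Zfp36l1, an mRNA-decay factor, by 1.04 (SE 0.14). With all 12 libraries in one fit 8 of the list were called, without Zfp36l1.

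Among 12 other leucine zipper genes, Bach1 fell by 1.03 (SE 0.25), Batf, a partner of JUN proteins in lymphocytes, by 0.70 (SE 0.17) and Nfe2l1 by 0.33 (SE 0.11), and none rose, a count of 3 of 12 lower beside 24.7% of all genes. With all 12 libraries in one fit 1 of these was called, without Bach1 and Nfe2l1. Total coverage scaling, the replicate block and library quality weights each called 5. Batf was not called without WT libraries 1 and 4. Nfe2l1 was not called without WT library 2, WT library 3, Eμ-Myc library 4, or WT libraries 2 and 3. Of 8 heat shock genes Hspa8, a constitutive chaperone, rose by 0.80 (SE 0.16) and Hsph1 by 0.96 (SE 0.24), with a median of 0.88, beside 30.4% of all genes called higher. Of these 4 were called without WT library 4 or without WT libraries 2 and 3, 7 without WT libraries 1 and 4, and 6 under library quality weights. Hsph1 was not called without WT libraries 2 and 3.

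In the knockout group against WT the same lists, apart from the heat shock genes, had fewer calls. These were 5 of 28 other immediate-early genes, 4 of 25, 2 of 17 and 4 of 18 genes of the 3 routes and 4 of 21 feedback inhibitors, with medians of -1.27, -0.36, -0.14, -0.63 and -1.02. Over all genes the share called was 29.3% here against 55.1% in Eμ-Myc against WT. Of 12 leucine zipper genes 1 was called, and of 8 heat shock genes 2 were, the same count as in Eμ-Myc against WT. The difference between the comparisons was not tested, and with WT libraries 1 and 4 or WT libraries 2 and 3 left out, none of these list genes was called. Nab2 was called lower, at a log2 fold change of -2.79 (SE 0.86, adjusted p = 0.0447 by limma), a call lost in 10 of 20 alternatives. Against Eμ-Myc no gene of any of these lists was called in the knockout group by limma, with list medians from -0.42 to 0.10.

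**Figure D4:**
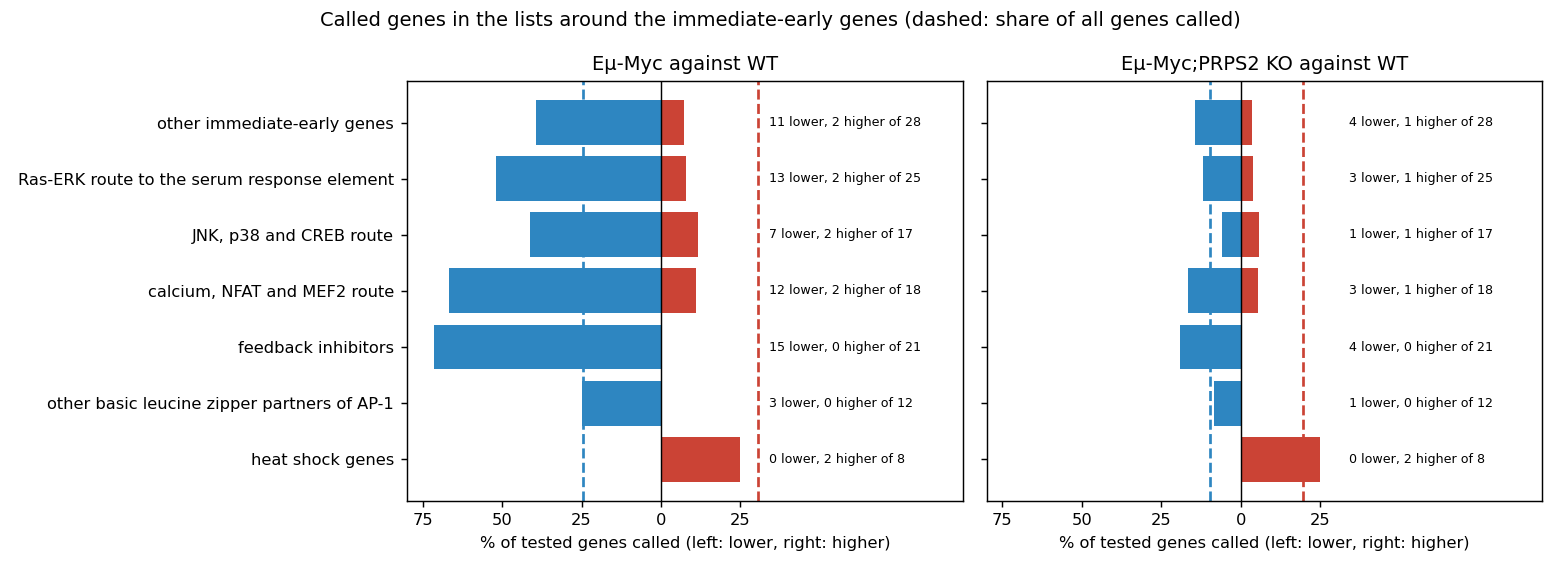
Percent of the tested genes of each list called lower (left) or higher (right) in each transgenic group against WT, with dashed lines at the share of all genes called in that direction. In Eμ-Myc against WT the feedback inhibitors (15 of 21) and the calcium, NFAT and MEF2 route (12 of 18) extend farthest to the left.

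Of the 10 genes, 9 lie at chr10:67535475-67542188 (Egr2), chr14:70077203-70082614 (Egr3), chr15:101254269-101274795 (Nr4a1), chr12:85473890-85477273 (Fos), chr7:19302696-19310051 (Fosb), chr4:95049034-95052222 (Jun), chr8:84974484-84978718 (Junb), chr8:70698949-70700616 (Jund) and chr8:84661331-84662852 (Ier2) in mm10, the build in the submitters' processing notes. The position of Egr1 is not given here. Jun, Jund and Ier2 are annotated with a single exon. Antisense genes overlap Jun over 689 bases and Jund over 919 bases, and Prdx2 on the opposite strand overlaps the end of Junb over 351 bases. Whether the authors counted by strand is not given in the sources used here, so reads of these overlaps cannot be told apart.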

How the data were processed

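Polyadenylated RNA of 12 libraries, 4 per genotype, was prepared with a directional kit, per the labels' protocols. For each library the authors deposited a table of 24982 gene symbols and their mean coverage, a signal given to 1 decimal; of its values above 0, 91.6% were not whole. The submitters' processing notes name mm10, DESeq and R 4.3.3, with no role given. The aligner, annotation and use of strand are not given in the sources used here, and depth is unknown, while coverage summed to between 1277305.5 and 1885768.9 per library.

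Libraries were scaled by an unweighted trimmed mean of log ratios (30% trimmed on ratios, 5% on means). limma 3.58.1 (trend, robust) in R 4.3.3 modelled log2(scaled coverage + 0.5) in the 8 libraries that a comparison holds, over genes at 1 or more in at least 4 of them, with two-sided tests and Benjamini-Hochberg adjustment over all genes tested. Calls were at an adjusted p under 0.05. Count tests were not used, since coverage is not a count. Python 3.11.15, numpy 2.4.6, pandas 2.3.3 and matplotlib 3.10.9 made the tables and plots. The 10 genes and the lists were chosen with earlier results of these data known. Named beside the 10 genes were, from each list, the 3 genes called in Eμ-Myc against WT at the smallest adjusted p, and the 5 genes nearest in pattern. The genes Myc, Prps2, Hspa1a, Hspa1b, Cd3e, Pecam1, Col1a1, Col3a1, Gadd45b, Ier5l, Mef2d and Ppp3cb were named outside this rule, after their values were seen. One item is not reported here. The symbol Ighm was not matched in the tables, so 6 of 7 B cell markers were summed. Alternatives were other scalings, filters and pseudocounts, a fit of all 12 libraries, a replicate block, library quality weights and leaving out libraries.

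The labels number replicates 1 to 4 in each group. Between the knockout group and Eμ-Myc, deviations of libraries of the same number correlated across genes at r = 0.657, 0.192, 0.253 and 0.607. Knockout libraries 1 and 2 both matched Eμ-Myc library 1 best, and knockout libraries 3 and 4 both matched Eμ-Myc library 4 best. The numbers were thus not shown to be pairs, although the blocked alternative takes them as pairs. Against WT the correlations ran from -0.423 to 0.398, and the numbers were not shown to be pairs there either. In Eμ-Myc against WT the same number was the best match for libraries 1 and 3. The labels do not state a pairing.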

Additional observations from a re-analysis of the deposited data

Results flagged for a closer look

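For Fos, Eμ-Myc library 3 at a scaled coverage of 387.5 was far from the other 3 Eμ-Myc libraries, which lay between 250.4 and 265. The gap to the nearest library was 0.895 of the group's range, above Dixon's 95% critical value for 4 samples. This was 1 of 30 groups examined (10 genes in 3 genotypes), and chance flags about 1 in 20 such groups. The same library was the highest of its group for Fosb, Nr4a1, Jun, Junb, Jund, Egr1 and Egr2, by less than that criterion. The reason was not tested.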

How the results depend on the processing

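Main counts of called genes come first in each sentence. In Eμ-Myc against WT, 2 of the 10 genes were called, 1 with a minimum of 10 in every library (where Egr2 could not be tested), 0 with all 12 libraries in one fit, 5 with library quality weights, 9 without WT libraries 2 and 3, 5 without WT libraries 1 and 4, and 2 whenever 1 library was left out. Over all genes the counts were 7016, 4835, 5460, 8808, 5836, 6286 and 5770 to 6857. As shares of the genes tested these were 55.1%, 59.3%, 42.9%, 69.2%, 47.0%, 50.7% and 46.0% to 54.7%. Other immediate-early genes had 13 calls, 4 in the fit of 12 libraries, 22 without WT libraries 2 and 3 and 7 to 13 with 1 library left out. In the knockout group against WT, 3716 genes were called, 5975 in the fit of 12, 10505 with weights, 2 without WT libraries 2 and 3, 4 without WT libraries 1 and 4, 1323 without knockout libraries 3 and 4, 8617 without knockout libraries 1 and 2, and 600 to 6633 with 1 library left out. Of the 10 genes 1 was called there, 0 with no filter, with the minimum of 10 or without either of the WT pairs, 2 in the fit of 12, 7 with weights, 7 without knockout libraries 1 and 2, and 0 to 2 with 1 library left out. Over all genes the share was 29.3%, 17.2% with no filter, 38.9% with the minimum of 10 and 47.1% in the fit of 12. It was 82.8% with weights, 70.1% without knockout libraries 1 and 2, and 4.78% to 53.2% with 1 library left out. Without WT libraries 2 and 3 it was 0.0161%, and without WT libraries 1 and 4 it was 0.0323%. Other immediate-early genes had 5 calls, 1 with no filter, 2 with the minimum of 10, 8 in the fit of 12, 3 with a pseudocount of 0.1, 25 with weights, 0 without either of the WT pairs, 1 without knockout libraries 3 and 4, 24 without knockout libraries 1 and 2, and 0 to 12 with 1 library left out. In the knockout group against Eμ-Myc, 1 gene was called, 7460 with weights, 524 without knockout libraries 3 and 4 and 3495 without knockout libraries 1 and 2. These were 0.00797%, 59.4%, 4.21% and 28.7% of the genes tested. For the 10 genes the counts were 0, 10, 1 and 10, and for other immediate-early genes 0, 23, 1 and 17. Leaving out pairs of libraries was chosen after seeing the data. Causes were not tested.

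With the replicate number as a block, the knockout group against WT had 1863 genes called (14.7%), 0 of the 10 genes and 1 other immediate-early gene. The numbers were not shown to be pairs in any comparison. In the knockout group against Eμ-Myc, treated as pairs, the block left 1 gene called and 0 of the 10. In Eμ-Myc against WT 7184 genes (56.5%) and 2 of the 10 were called under the block.

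Over all genes of Eμ-Myc against WT, total coverage scaling took the median log2 fold change from -0.01 to -0.19, and 42.0% of called genes were then higher against 55.2%. Signs of the 10 genes changed in 13 of 188 values in Eμ-Myc against WT, 17 of 205 in the knockout group against WT and 10 of 185 between the transgenic groups. List counts moved by over 1.5 times in 111 of 354 values. No counting error can be given at an unknown depth.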
